A study of Homo sapiens with 12 samples.

Results

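Transcripts of the machinery that copies DNA, and of the factors that bring cells into S phase, were examined in 3 lines of mantle cell lymphoma (MCL), a B-cell cancer. The 52 genes were taken by name as a fixed list of licensing, replisome and G1/S genes. Each was represented by the probe set (the group of probes that measures a transcript) with the highest mean over 12 Affymetrix arrays. All 52 were measured, of 19775 genes in all. They comprised 11 genes of the replicative helicase and 7 of origin licensing and firing. Another 7 encoded the sliding clamp and its loaders, 9 the polymerases and primase, and 5 the flap endonuclease, DNA ligase and the single-strand binding protein RPA. The remaining genes were 2 subunits of ribonucleotide reductase, 5 G1/S drivers and 6 genes of chromatin assembly and fork protection.

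The lines were Mino, Rec-1 and SP-49, all labelled as MCL. Each line was treated for 24 h with 1 µM compound E, an inhibitor of gamma-secretase (GSI), or with 0.1% DMSO as the mock control, with 2 arrays per group and 6 groups in all. Gamma-secretase cuts Notch receptors, and the cut releases the part of the receptor that acts in the nucleus. Mino was grown in 15% serum and Rec-1 and SP-49 in 10% serum, so serum and line cannot be told apart when Mino is compared with another line. Each is 1 established cell line, so lines are compared here, not groups of tumours. The labels do not say whether the 2 arrays of a group came from separate cultures, so the error behind each p-value is the spread of these arrays and may be technical.

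Before S phase, the origin recognition complex, CDC6 and CDT1 load the MCM2-7 ring onto DNA. The kinase CDC7 with its partner DBF4 then helps to turn the ring, with CDC45 and the GINS complex, into an active helicase. Primase and polymerase alpha start each strand, and polymerases delta and epsilon extend it on the clamp PCNA, which the RFC complex loads. Many of these genes are targets of E2F transcription factors, which cyclin E and its kinase release from the retinoblastoma proteins at the G1/S boundary.

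Values are on a log2 scale, so that a difference of 1 is a change by a factor of 2. They ran from 0.578 to 12.782 over all probe sets, with a median of 1.994. The median over the members lay between 6.71 and 6.98 on every array. GINS4 in Mino and Rec-1 (2.13 to 3.12) and CLSPN (2.84 to 3.67 over the 12 arrays) were closest to the low end. The B-cell markers MS4A1, CD79A, CD79B, PAX5 and CD22 had medians of 7.82 to 9.71 per array. The medians of the T-cell, myeloid, stromal and epithelial markers lay between 1.44 and 3.04. Single markers departed from these medians. The T-cell marker CD3D read 4.81 and 4.79 in the mock arrays of Rec-1. In Mino the epithelial marker EPCAM read 3.97 to 4.32 and CD22 only 3.71 to 4.22. CCND1, the cyclin D1 gene that marks MCL, had group means of 8.32 to 10.74. SOX11, the other MCL marker, was lower in Rec-1, with a mock mean of 4.90 against 7.42 in Mino and 8.56 in SP-49. The fall of HES1, a direct Notch target, served as the check of inhibitor action. It fell at least 14-fold in Rec-1 and at least 11.4-fold in SP-49, both lower bounds because the inhibitor arrays read 1.70 to 2.53, near the median of all probe sets. MYC fell 2.9-fold and 2.93-fold. In Mino HES1 was already at 1.69 and 2.0 in the mock arrays, and the differences were -0.07 for HES1 and 0.13 for MYC.

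The start regions of 5 members whose levels are described below are shown because each holds an E2F motif close to the start. RefSeq promoter windows on GRCh38.p14, from 250 bases before to 50 bases after the start, were matched by symbol for 44 of the 52 members. The 8 members not matched were DSCC1, POLD3, MCM5, GINS4, RPA2, CCNE2, RPA3 and MCM4. The 4 motifs searched, on both strands, were TTTCGCGC, TTTGGCGC, TTTCCCGC and TTTGCCGC. At least 1 of them occurred in 24 of the 57 windows of the members (42.1%), against 3.31% of all 35116 windows of that length. By gene, 23 of the 44 members (52.3%) had a match, against 3.99% of 27305 genes. Each line below gives the 160 bases before the start, 5′ to 3′ in the direction of the gene, with the matches in capitals.
MCM6: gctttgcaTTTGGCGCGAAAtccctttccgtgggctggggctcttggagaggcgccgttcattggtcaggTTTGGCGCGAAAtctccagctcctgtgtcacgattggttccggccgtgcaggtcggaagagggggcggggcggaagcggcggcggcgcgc
RFC3: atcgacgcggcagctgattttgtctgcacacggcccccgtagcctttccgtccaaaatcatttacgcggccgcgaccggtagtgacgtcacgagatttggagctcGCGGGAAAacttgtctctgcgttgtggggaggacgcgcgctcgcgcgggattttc
POLA1: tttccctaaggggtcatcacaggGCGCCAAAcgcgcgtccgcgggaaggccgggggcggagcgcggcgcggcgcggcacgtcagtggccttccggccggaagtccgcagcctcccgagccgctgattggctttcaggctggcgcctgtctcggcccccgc
GINS2: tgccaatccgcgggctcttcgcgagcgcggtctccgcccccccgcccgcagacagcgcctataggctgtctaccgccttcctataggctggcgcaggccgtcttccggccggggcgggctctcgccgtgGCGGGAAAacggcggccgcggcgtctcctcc
E2F2: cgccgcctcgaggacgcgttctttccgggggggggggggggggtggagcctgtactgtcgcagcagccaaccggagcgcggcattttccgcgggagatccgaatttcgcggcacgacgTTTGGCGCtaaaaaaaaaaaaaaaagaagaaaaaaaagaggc
The regions are chr2:135876444-135876603, minus strand, for MCM6, chr13:33817989-33818148, plus strand, for RFC3, chrX:24693758-24693917, plus strand, for POLA1, chr16:85688955-85689114, minus strand, for GINS2, and chr1:23531234-23531393, minus strand, for E2F2. In MCM6, a helicase subunit, 2 motifs on opposite strands overlap, and the pair occurs at 2 places. Counted from the start, its matches begin at -152, -148, -90 and -86. The single matches begin at -55 in RFC3, -137 in POLA1, -31 in GINS2 and -42 in E2F2. A match describes the letters of the window and was not tested as a binding site.

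The inhibitor left most of these transcripts close to their mock level in all 3 lines. With limma over all genes and Benjamini-Hochberg adjustment, 0 of the 52 members passed an adjusted p of 0.05 in Mino, where 0% of all genes did. In Rec-1 0 of 52 passed, against 5.77% of all genes, and in SP-49 0 of 52, against 0.192%. At an unadjusted p under 0.05 the counts were 0 members in Mino, 8 (15.4%) in Rec-1 and 2 (3.85%) in SP-49, below the shares of all genes, which were 4.9%, 19.2% and 8.87%. With a prior that follows intensity and is robust to outliers, 5 passed in Rec-1, against 8.71% of all genes: CDC6, GINS2, MCM10 and POLD2, lower, and RPA3, higher. The median change of the members was -0.01 in Mino, -0.07 in Rec-1 and -0.03 in SP-49, beside medians over all genes of 0, 0.01 and -0.02. Changes ran from -0.26 to 0.27 in Mino, from -0.81 to 0.34 in Rec-1 and from -0.38 to 0.39 in SP-49.

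The widths of the intervals say how much change on the probe sets used could have been missed, given the spread of these arrays. They do not cover other probe sets of the same genes. The 95% interval, which is not adjusted for the number of genes, lay within a change of 1.5-fold either way for 48 of the 52 members in Mino, 36 in Rec-1 and 45 in SP-49. Over all genes that share was 69.4%, 54.8% and 65.5%. Within 2-fold the counts were 52, 51 and 52, and the shares of all genes 98.1%, 91.1% and 96%. The exception at 2-fold was CDC6 in Rec-1.

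**Figure D1:**
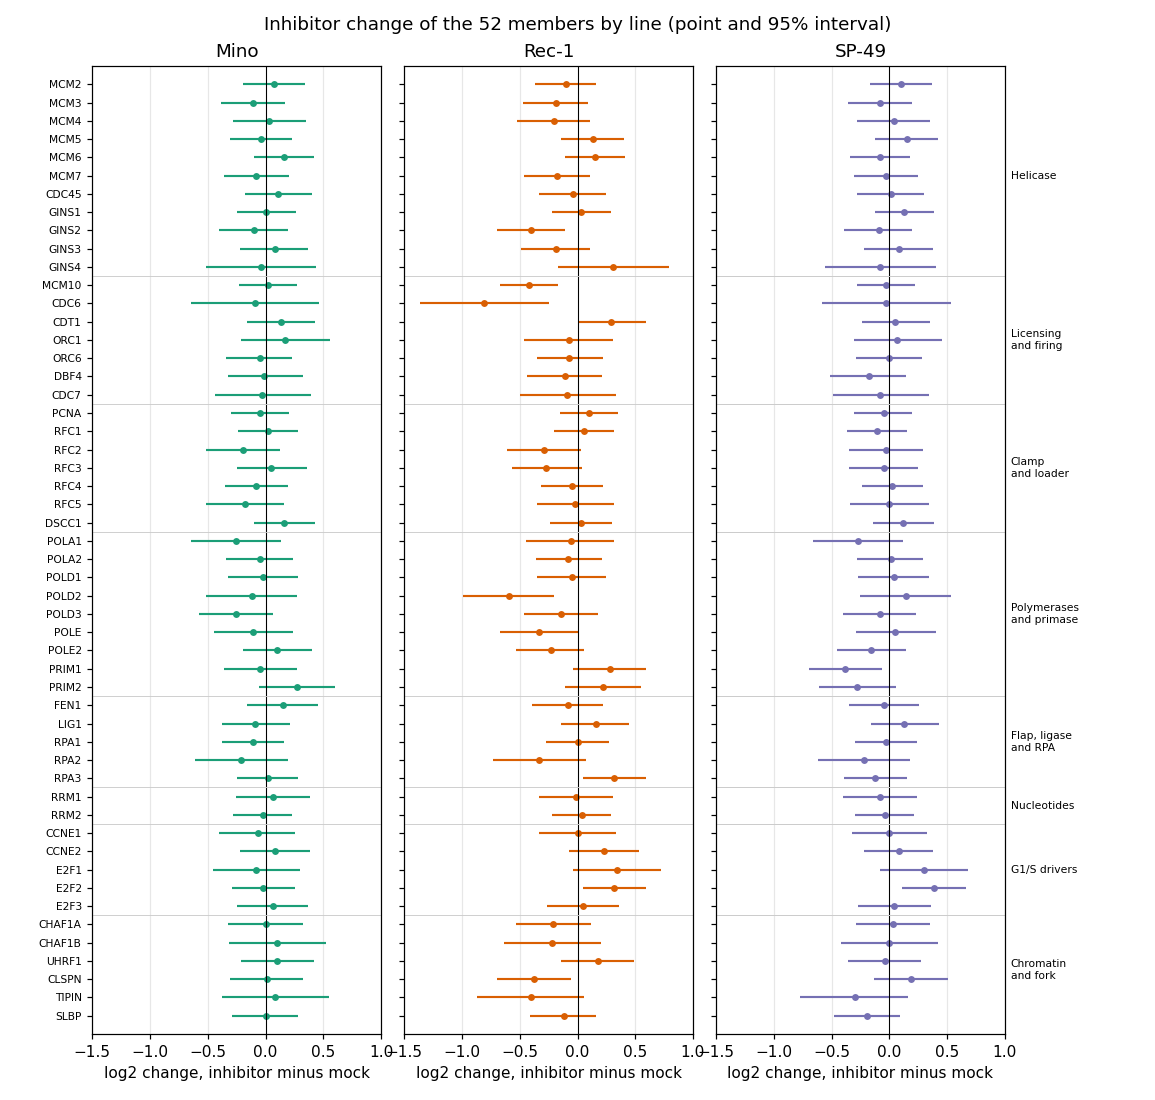
Change of each of the 52 genes on the log2 scale, inhibitor minus mock, in Mino, Rec-1 and SP-49, as a point with its 95% limma interval, ordered by role. Points in Mino stay between -0.26 and 0.27, and the lowest point is CDC6 in Rec-1 at -0.81.

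Among the helicase genes of Rec-1, changes ran from -0.40 to 0.31 with a median of -0.10. MCM2, a subunit of the ring, had a change of -0.10 in Rec-1, 0.07 in Mino and 0.10 in SP-49. GINS2, a subunit of the 4-protein GINS complex, had mock levels of 7.18 and 7.24 and inhibitor levels of 6.93 and 6.69 in Rec-1. The inhibitor values lay below the mock values without overlap, and the change of -0.40 had an adjusted p of 0.117 with limma.

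Licensing and firing held the lowest change in Rec-1, that of CDC6. MCM10, which binds the helicase at the step of activation, read 6.39 and 6.49 in the mock arrays and 6.06 and 5.99 in the inhibitor arrays. The groups were apart by more than their own spread. The change was -0.42 (95% interval -0.67 to -0.17), and its adjusted p of 0.0569 in limma was the smallest among the members. MCM10 in the other lines had a change of 0.02 in Mino and -0.03 in SP-49.

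CDC6, which loads the MCM ring onto origins, read 4.81 and 4.59 in the mock arrays of Rec-1 and 4.38 and 3.41 in the inhibitor arrays. Both inhibitor arrays were below both mock arrays, but they differed from each other more than the first did from the mock arrays. The change was -0.81, or 1.75-fold lower (95% interval -1.36 to -0.25, adjusted p 0.0951 in limma). Without inhibitor replicate 2 of Rec-1 it was -0.32 (adjusted p 0.444), and without inhibitor replicate 1 it was -1.29 (adjusted p 0.00209). A second CDC6 probe set read 4.22 and 4.45 in the mock arrays and 3.67 and 3.36 in the inhibitor arrays. Its change of -0.82 passed the threshold when every probe set was tested on its own (adjusted p 0.00947). In the other lines, Mino and SP-49, the changes of CDC6 were -0.09 and -0.03.

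CDT1, the partner of CDC6 in loading, gave opposite readings from its probe sets in Rec-1. The brighter one read 5.18 and 4.97 in the mock and 5.42 and 5.32 in the inhibitor arrays (change 0.29, not past the threshold). The dimmer one fell from 4.16 and 4.07 to 3.51 and 3.68 (change -0.51, adjusted p 0.0397 over probe sets). No direction is given for CDT1 for that reason. MCM4, a ring subunit, gave changes of -0.20 and -0.42 on its brighter probe sets (adjusted p 0.551 and 0.108 over probe sets), -0.80 and -0.64 on 2 dimmer ones (adjusted p 0.0155 and 0.0274) and 0.50 on the dimmest (adjusted p 0.286). DSCC1, part of an alternative clamp loader, had a change of 0.03 on its brighter probe set and of 0.85 on a dim one that read 2.47 and 2.49 in the mock arrays (adjusted p 0.0208). With each probe set tested on its own, 4 members had a probe set past the threshold in Rec-1, against 6.61% of all genes with at least 1.

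The clamp and its loaders gave small changes. PCNA read 10.60 and 10.66 in the mock arrays of Rec-1 and 10.74 and 10.71 in the inhibitor arrays, a change of 0.10, and its changes in Mino and SP-49 were -0.05 each. Over the 7 genes of the clamp group the changes in Rec-1 ran from -0.29 to 0.10.

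POLD2, the second subunit of polymerase delta, read 7.28 and 7.36 in the mock arrays of Rec-1 and 6.70 and 6.75 in the inhibitor arrays. The arrays of each group were close together and the groups did not overlap. The change was -0.59, or 1.51-fold lower (95% interval -0.99 to -0.20), with an adjusted p of 0.084 in limma. It passed, at 0.0365, when either mock array of SP-49 was left out. POLD2 had a change of -0.12 in Mino and 0.14 in SP-49. POLE, the catalytic subunit of polymerase epsilon, read 6.08 and 5.96 in the mock arrays of Rec-1 and 5.7 and 5.69 in the inhibitor arrays, a change of -0.33 (adjusted p 0.285). PRIM1, a primase subunit, read 6.67 and 6.71 in the mock arrays of SP-49 and 6.52 and 6.11 in the inhibitor arrays, and the change of -0.38 had an adjusted p of 0.456. Its change was 0.28 in Rec-1 and -0.05 in Mino. PRIM2 had a change of -0.28 in SP-49 (adjusted p 0.676), of 0.27 in Mino and of 0.22 in Rec-1. In Mino the other members with the smallest p were POLD3 and POLA1, each with a change of -0.26, and the adjusted p of all 3 was 0.9998.

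RPA3, the smallest subunit of the single-strand binding protein, read 7.97 and 8.10 in the mock arrays of Rec-1 and 8.39 and 8.33 in the inhibitor arrays. The groups did not overlap, and the change of 0.32 had an adjusted p of 0.171. Ribonucleotide reductase supplies the deoxynucleotides for synthesis, and its subunit RRM2 stayed at 9.33 to 9.38 on all 4 Rec-1 arrays. The changes of RRM2 were 0.04 in Rec-1, -0.02 in Mino and -0.04 in SP-49.

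On the probe sets used, the 5 G1/S drivers all had changes of 0 or above in Rec-1 and SP-49, none of them past the threshold. Their medians were 0.23 in Rec-1 and 0.08 in SP-49, against 0.01 and -0.02 over all genes. Other probe sets did not all follow. In Rec-1 a dimmer CCNE2 probe set read 4.6 and 4.52 in the mock and 4.25 and 4.11 in the inhibitor arrays. A second E2F3 probe set read 5.57 and 5.15, then 5.31 and 5.07. E2F2, an activating E2F, read 6.0 and 6.21 in the mock arrays of SP-49 and 6.44 and 6.54 in the inhibitor arrays. In Rec-1 it read 6.80 and 6.64 in the mock arrays and 7.04 on both inhibitor arrays. The groups were apart in both lines, and the changes were 0.39 in SP-49 (95% interval 0.11 to 0.66, adjusted p 0.346) and 0.32 in Rec-1 (adjusted p 0.184). E2F2 in Mino had a change of -0.02. E2F1, another activating E2F, had a change of 0.34 in Rec-1 (adjusted p 0.32) and 0.30 in SP-49, and of -0.08 in Mino. Cyclin E1 (CCNE1) had a change of 0 in Rec-1 and SP-49 and of -0.07 in Mino, and cyclin E2 (CCNE2) changes of 0.23, 0.08 and 0.08 in Rec-1, SP-49 and Mino.

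Of the genes of chromatin and fork protection, CLSPN and TIPIN, both of the fork protection pathway, had changes of -0.38 and -0.40 in Rec-1 (adjusted p 0.171 and 0.344). TIPIN read 5.37 and 5.59 in the mock arrays and 5.46 and 4.70 in the inhibitor arrays, so that the groups overlapped. UHRF1, which links DNA methylation to replication, had a change of 0.18 in Rec-1, 0.10 in Mino and -0.04 in SP-49.

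**Figure D2:**
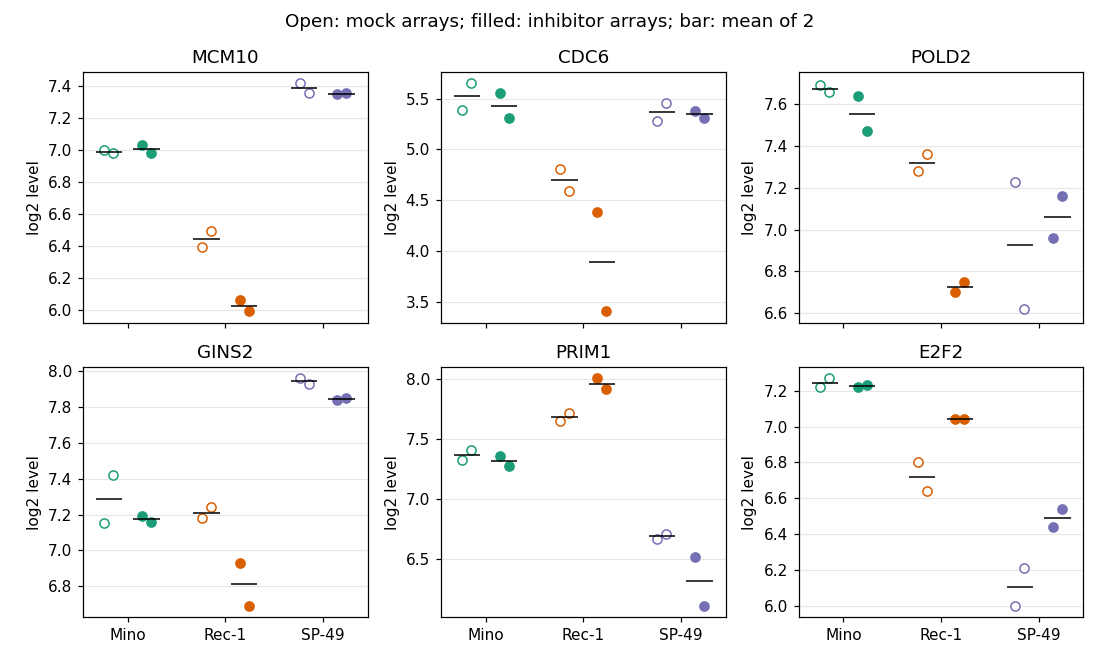
Log2 level of MCM10, CDC6, POLD2, GINS2, PRIM1 and E2F2 on each of the 12 arrays, by line and treatment, 1 point per array. In Rec-1 the inhibitor points of MCM10, CDC6, POLD2 and GINS2 lie below both mock points and those of E2F2 above them, and the 2 CDC6 inhibitor points are at 4.38 and 3.41.

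Counted by arrays alone, 13 members lay above and 18 below their mock arrays in Rec-1 without overlap, where 22.9% and 22.3% of all genes did. In Mino the counts were 7 above and 10 below (16.2% and 17% of all genes), and in SP-49 10 above and 12 below (18.1% and 24.4%). In Rec-1 and SP-49 the second inhibitor array sat lower than the first, with 36 and 34 members lower on replicate 2. The mock arrays of these lines leaned the same way, with 33 and 34 members lower on replicate 2. In Mino 23 members were lower on replicate 2 in the mock arrays and 30 in the inhibitor arrays. Relative to the mock mean of each gene, the median member stood at 0.014 on the first and -0.112 on the second inhibitor array of Rec-1, with 25 and 34 members below. In SP-49 the medians were 0.005 and -0.074, with 25 and 36 members below. The medians of all genes on these arrays were 0.009 and 0 in Rec-1 and 0 and -0.045 in SP-49. The 3′ minus 5′ difference of the GAPDH control probe sets, a sign of RNA quality, was 0.59 and 0.49 on the inhibitor arrays of Rec-1 and 0.41 and 0.37 on its mock arrays. For ACTB, another such control, it was 2.29 and 1.92 on the inhibitor arrays and 2.0 and 1.83 on the mock arrays. The part of RNA quality in the changes was not tested.

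Whether the lines responded differently was tested with the difference of their changes. Between Rec-1 and Mino 0 of 52 members differed, against 1.43% of all genes. The count was 0 between SP-49 and Mino, against 0.0455%, and 0 between Rec-1 and SP-49, against 0.556%, with limma. At an unadjusted p under 0.05 there were 1, 2 and 6 members (1.92%, 3.85% and 11.5%), against 14.1%, 7.17% and 11% of all genes. The member nearest to the threshold was PRIM1, with a change in Rec-1 that exceeded the change in SP-49 by 0.66 (95% interval 0.21 to 1.11, adjusted p 0.239). POLD2 and CLSPN followed in that comparison, at -0.73 (adjusted p 0.296) and -0.57 (adjusted p 0.313). Between Rec-1 and Mino the members with the smallest p were MCM10 (-0.43, adjusted p 0.245), CDC6 (-0.71, adjusted p 0.406) and E2F2 (0.34, adjusted p 0.426). Between SP-49 and Mino they were PRIM2 (-0.54, adjusted p 0.599), E2F2 (0.41, adjusted p 0.671) and PRIM1 (-0.33, adjusted p 0.781). When inhibitor replicate 1 of Rec-1 was left out, CDC6 alone passed in both comparisons with Rec-1, at -1.20 against Mino (adjusted p 0.0191) and -1.27 against SP-49 (adjusted p 0.0321).

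The other genes of the cell cycle held a few calls in Rec-1 and none in Mino or SP-49. Of 24 further replication genes, 1 rose and 1 fell in Rec-1, with a median of -0.11. POLD4, the small subunit of polymerase delta, rose from 6.64 and 6.53 to 7.42 and 7.72 (change 0.99, adjusted p 0.005). POLE3, a small subunit of polymerase epsilon, fell from 7.61 and 7.68 to 6.88 and 6.84 (change -0.79, adjusted p 0.00525). Leaving out the second mock array of Rec-1 ended both calls, at 0.052 and 0.0522. The change of POLD2, of polymerase delta like POLD4, was -0.59 and did not pass. The rise of POLD4 in Rec-1 exceeded its change in Mino by 1.4 (adjusted p 0.0172).

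Among 18 G1/S regulators 3 rose and 1 fell in Rec-1, with a median of -0.12. CDKN1A, the kinase inhibitor p21, rose from 3.00 and 2.74 to 3.36 and 3.99 (change 0.81, adjusted p 0.0378). Both mock readings were near the low end, so the size of this change is uncertain. The inhibitor arrays of CDKN1A lay above the mock arrays but apart from each other, and the change was 0.49 without inhibitor replicate 2 (adjusted p 0.2). CDKN1B, the related inhibitor p27, rose from 7.50 and 7.38 to 7.94 and 7.93 (change 0.50, adjusted p 0.0279). RBL2, a retinoblastoma relative that holds E2F targets down in resting cells, rose by 0.59 (adjusted p 0.0208, but 0.27 and 0.365 over the mean of its probe sets), and CDC25A, the phosphatase that activates CDK2, fell by 0.56 (adjusted p 0.0208). These calls were sensitive to single arrays. The highest adjusted p with 1 array left out was 0.227 for CDKN1A (without mock replicate 2 of Rec-1), 0.18 for CDKN1B, 0.149 for RBL2 and 0.158 for CDC25A, the last 3 on leaving out the same array.

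Of 7 genes of nucleotide supply 1 rose in Rec-1, with a median of 0.35: DCK, the kinase that salvages deoxycytidine, by 0.51 (adjusted p 0.04, and 0.0511 to 0.196 with any 1 of the 12 arrays left out). Of 20 G2/M genes 1 rose, HMMR, a mitotic spindle gene, by 0.50 (adjusted p 0.034, up to 0.182 with mock replicate 2 of Rec-1 left out), with a median of 0.08. In Mino and SP-49 none of the genes of these lists passed in limma. At an unadjusted p under 0.05, 7 of the 24 replication genes, 4 of 7, 10 of 18 and 5 of 20 did so in Rec-1, against 19.2% of all genes. In Mino these counts were 1, 0, 0 and 1, against 4.9%, and in SP-49 1, 1, 1 and 0, against 8.87%.

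More members differed between the lines than between treatments. Among the mock arrays 36 of the 52 members (69.2%) differed between at least 1 pair of lines, against 41.3% of all genes. Rec-1 and Mino differed in 20 members (38.5%, against 26.1% of all genes), of which 7 were higher in Rec-1 (12.8% of all genes were) and 13 lower (13.3%). SP-49 and Mino differed in 25 (48.1%, against 25.6%), 14 higher in SP-49 (13.9%) and 11 lower (11.8%). Rec-1 and SP-49 differed in 25 (48.1%, against 28.9%), 8 higher in Rec-1 (13.1%) and 17 lower (15.8%). Dim genes are part of that background. Without the genes whose highest group mean was under the median of all probe sets, 36.4%, 36% and 40.1% of genes were called in the same order. Between Rec-1 and Mino that share was near the 38.5% of the members. No such share was taken beside the 41.3% for any pair. The count between Rec-1 and Mino was 13 without mock replicate 1 of Rec-1, and that between SP-49 and Mino was 16 without mock replicate 2 of SP-49. In bulk RNA a larger share of cells in S phase and more RNA per cell cannot be told apart. The 3′ minus 5′ difference also varied between the mock arrays of the lines. For GAPDH it was 0.26 and 0.25 in Mino, 0.41 and 0.37 in Rec-1 and 0.35 and 0.34 in SP-49. For ACTB it was 1.73 and 1.79 in Mino, 2.0 and 1.83 in Rec-1 and 2.29 and 2.36 in SP-49. The part of RNA quality in the line differences was not tested.

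**Figure D3:**
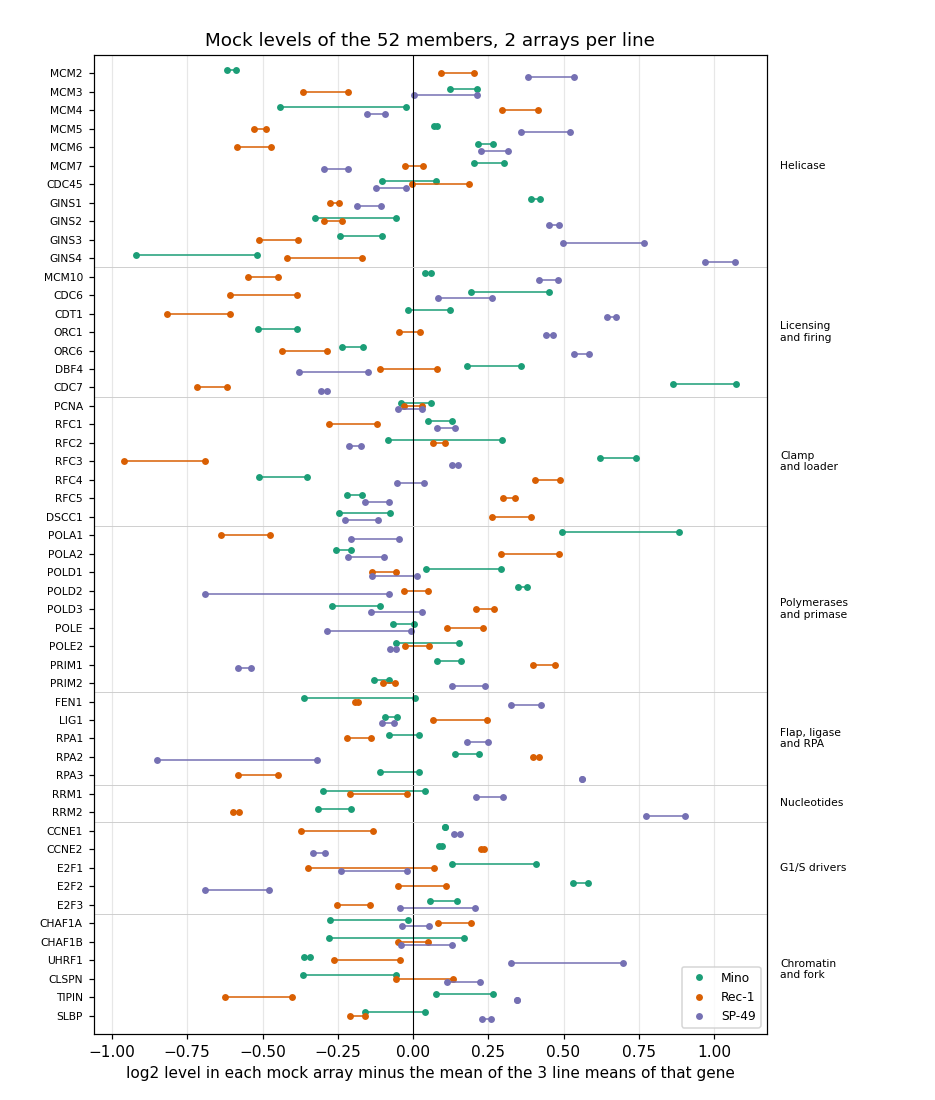
Log2 level of each of the 52 genes on each of the 6 mock arrays, minus the mean of the 3 line means of that gene, coloured by line and ordered by role. The range of the line means runs from 0.02 for PCNA to 1.74 for GINS4, which reads near the low end in Mino, with a median of 0.58.

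No single line was highest throughout. SP-49 stood above both other lines, each with an adjusted p under 0.05, in 11 members, against 8.08% of all genes: MCM5, GINS2, GINS3, GINS4, MCM10, CDT1, ORC6, FEN1, RPA3, RRM2 and UHRF1. For CDT1 a dimmer probe set put SP-49 below Mino (-1.19), and the mean of its probe sets did so too (-0.29, adjusted p 0.0452). The dimmer probe set also read higher in Rec-1 (4.16 and 4.07) than in SP-49 (3.87 and 3.89), a difference not past the threshold. Rec-1 stood below both in 8 (7.91% of all genes), namely MCM3, MCM5, MCM6, MCM10, CDT1, RFC3, RPA3 and TIPIN. Between Rec-1 and Mino the calls of TIPIN and RPA3 were lost when some single arrays were left out (differences -0.8 to -0.58 and -0.53 to -0.4). Mino was above both in 5 (5.31%), which were GINS1, CDC7, RFC3, POLA1 and E2F2. Rec-1 was above both in 4 (6.52%), MCM4, RFC4, DSCC1 and POLA2. The mean of the probe sets turned the sign of DSCC1 between Rec-1 and Mino (-0.07, adjusted p 0.762), as it did for E2F2 (0.04, adjusted p 0.867). SP-49 was below both in 4 (5.81%), PRIM1, RPA2, CCNE2 and E2F2, and Mino below both in 2 (5.76%), MCM2 and RFC4. The 16 members with no pair past the threshold on the probe sets used were CDC45, PCNA, RFC1, RFC2, POLD1, POLE, POLE2, PRIM2, LIG1, RRM1, CCNE1, E2F1, E2F3, CHAF1A, CHAF1B and CLSPN. They need not be equal on other probe sets. A CHAF1A probe set read 6.82 and 6.89 in Rec-1, 5.94 and 6.1 in Mino and 5.77 and 5.93 in SP-49. An E2F3 probe set read 5.96 and 6.28 in SP-49, 5.42 and 5.53 in Mino and 5.57 and 5.15 in Rec-1.

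The 6 subunits of the MCM ring, which assemble in equal numbers, did not follow 1 order of lines. MCM2 read 7.55 and 7.58 in Mino, 8.37 and 8.26 in Rec-1 and 8.70 and 8.55 in SP-49. Mino was lowest, by 0.75 against Rec-1 (adjusted p 0.000684) and 1.06 against SP-49 (adjusted p 4.96e-05), and the other two lines did not differ past the threshold (adjusted p 0.0782). MCM6 read 8.79 and 8.84 in Mino, 8.10 and 7.99 in Rec-1 and 8.89 and 8.80 in SP-49. Here Rec-1 was lowest, by 0.77 and 0.80 (adjusted p 0.000441 and 0.000277), and Mino and SP-49 overlapped. MCM5 was lower in Rec-1, at 7.61 and 7.65, than in Mino, at 8.22 and 8.21, or SP-49, at 8.66 and 8.50. MCM3 was lower in Rec-1 by 0.46 against Mino and 0.40 against SP-49, and MCM7 lower in SP-49 than in Mino by 0.51. A second MCM7 probe set read 8.14 and 8.30 in Mino and 8.14 and 8.05 in SP-49 and did not pass. MCM4 was higher in Rec-1, by 0.59 and 0.48. For MCM3 and MCM4 the call between Rec-1 and Mino was lost without mock replicate 1 of Rec-1 (adjusted p 0.137 and 0.0729), and for MCM7 that between SP-49 and Mino without mock replicate 2 of SP-49 (adjusted p 0.0868).

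The GINS complex, which also has 1 copy of each subunit, divided in a similar way. GINS3 read 4.94 and 5.08 in Mino, 4.67 and 4.80 in Rec-1 and 5.68 and 5.95 in SP-49. GINS4 read 2.53 and 2.13 in Mino, 2.88 and 2.63 in Rec-1 and 4.02 and 4.12 in SP-49. SP-49 was the highest line for both, by 0.80 and, for GINS4, at least 1.74 against Mino, where GINS4 was near the low end (adjusted p 0.000841 and 9.82e-05), and Mino and Rec-1 did not differ past the threshold. GINS2 was higher in SP-49 by 0.66 against Mino and by 0.73 against Rec-1. GINS1 was highest in Mino, at 8.35 and 8.38 against 7.68 and 7.71 in Rec-1 and 7.85 and 7.77 in SP-49 (adjusted p 0.00101 and 0.00371).

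The licensing and firing genes did not share 1 order of lines. CDC7, the origin-firing kinase, read 6.66 and 6.87 in Mino, 5.18 and 5.08 in Rec-1 and 5.51 and 5.49 in SP-49. Mino was 3.11-fold above Rec-1 and 2.4-fold above SP-49 (log2 differences 1.63 and 1.26 lower in those lines, adjusted p 5.17e-05 and 0.000356). DBF4, which activates CDC7, was lower in SP-49 than in Mino by 0.53 and did not pass between Rec-1 and Mino (-0.28). ORC6 and ORC1, of the origin recognition complex, were instead higher in SP-49 than in Mino, by 0.77 and 0.90, and ORC6 was lower in Rec-1 than in SP-49 by 0.92. MCM10 read 7.0 and 6.98 in Mino, 6.39 and 6.49 in Rec-1 and 7.42 and 7.36 in SP-49, and all 3 pairs of lines passed. CDC6 was lower in Rec-1 than in Mino by 0.82 (adjusted p 0.0314), but not when any 1 of the 4 arrays was left out (adjusted p up to 0.179).

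RFC3 and RFC4, subunits of the same clamp loader, went in opposite directions between Rec-1 and Mino. RFC3 read 8.47 and 8.35 in Mino, 7.04 and 6.77 in Rec-1 and 7.88 and 7.86 in SP-49. RFC4 read 7.81 and 7.97 in Mino, 8.81 and 8.73 in Rec-1 and 8.27 and 8.36 in SP-49. The order of the lines is reversed between these genes without overlap. RFC3 was 2.84-fold lower in Rec-1 than in Mino (-1.5, 95% interval -1.81 to -1.20, adjusted p 8.98e-06) and RFC4 was higher by 0.88 (adjusted p 0.000206). RFC5 was higher in Rec-1 than in Mino by 0.52 (adjusted p 0.0262), a call lost without any 1 of the 4 arrays. RFC1 and RFC2 passed in no pair on the probe sets used. The clamp itself, PCNA, had line means of 10.64, 10.63 and 10.62 in Mino, Rec-1 and SP-49, which did not differ beyond the spread of the arrays.

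For polymerase alpha, POLA1, the catalytic subunit, read 6.88 and 6.49 in Mino, 5.52 and 5.36 in Rec-1 and 5.95 and 5.79 in SP-49. It was highest in Mino, by 1.24 over Rec-1 (adjusted p 0.000251) and 0.81 over SP-49 (adjusted p 0.00476, or 0.0536 without mock replicate 1 of Mino). POLA2, its accessory subunit, was highest in Rec-1, at 6.86 and 6.67, by 0.62 over Mino and 0.54 over SP-49. The call against SP-49 was lost without mock replicate 1 of Rec-1 (adjusted p 0.0748) or mock replicate 2 of SP-49 (0.0707). PRIM1, the catalytic subunit of primase, was lowest in SP-49, at 6.67 and 6.71 against 7.33 and 7.41 in Mino and 7.65 and 7.72 in Rec-1. The difference between Rec-1 and SP-49 was 1.00 (adjusted p 0.000232).

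The subunits of RPA also gave opposite orders. RPA2 read 6.67 and 6.59 in Mino, 6.87 and 6.85 in Rec-1 and 6.13 and 5.60 in SP-49, and was higher in Rec-1 than in SP-49 by 1.00 (adjusted p 0.00125). RPA3 read 8.44 and 8.57 in Mino, 7.97 and 8.10 in Rec-1 and 9.11 on both arrays of SP-49, and was lower in Rec-1 than in SP-49 by 1.08 (adjusted p 3.70e-05). The arrays of SP-49 were far apart for RPA2. The lower level of RPA2 in SP-49 than in Mino (-0.76) did not pass without mock replicate 2 of SP-49 (adjusted p 0.104). RPA1 differed only between Rec-1 and SP-49, by -0.39.

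RRM2 had the smallest p of the members between Rec-1 and SP-49. It read 9.61 and 9.72 in Mino, 9.35 and 9.33 in Rec-1 and 10.70 and 10.83 in SP-49. SP-49 was above the other lines without overlap, 2.15-fold against Mino (1.10, adjusted p 2.50e-05) and 2.69-fold against Rec-1 (-1.43 for Rec-1 minus SP-49, adjusted p 2.64e-06). A second RRM2 probe set placed SP-49 highest as well, by 1.05 over Mino, but read higher in Rec-1 than in Mino by 0.40 (adjusted p 0.0406), where the first read -0.33 (adjusted p 0.061). The order of Mino and Rec-1 is therefore not given. SP-49 passed above Rec-1 on the second probe set too, but by less than on the first. The 2.69-fold size holds for the first probe set only, and the probe sets do not settle the size of this difference. RRM1 passed in no pair on the probe set used. FEN1, which trims Okazaki fragments, was higher in SP-49 than in Mino by 0.56 and than in Rec-1 by 0.57, both lost on leaving out mock replicate 2 of SP-49 (adjusted p 0.0827 and 0.0683).

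E2F2 was the G1/S driver that differed most. It read 7.22 and 7.27 in Mino, 6.80 and 6.64 in Rec-1 and 6.0 and 6.21 in SP-49, with all 3 pairs of lines past the threshold. SP-49 was 2.21-fold below Mino (-1.14, adjusted p 3.37e-05). The difference between Rec-1 and Mino (-0.53, adjusted p 0.00786) was lost without mock replicate 2 of Rec-1 (0.0736) and took the value 0.04 when the 3 probe sets of E2F2 were averaged. E2F1, E2F3 and CCNE1 passed in no pair on the probe sets used. CCNE2 was lower in SP-49 than in Rec-1 by 0.55 (adjusted p 0.00892, or 0.0592 without mock replicate 2 of SP-49).

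Of the chromatin and fork genes, UHRF1 was higher in SP-49, at 8.67 and 8.30, than in Mino, at 7.61 and 7.63, by 0.86 (adjusted p 0.000765). TIPIN was lower in Rec-1 than in SP-49 by 0.86 (adjusted p 0.00871, or 0.0709 without mock replicate 1 of Rec-1). SLBP, which binds histone messenger RNA, was lower in Rec-1 than in SP-49 by 0.43.

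**Figure D4:**
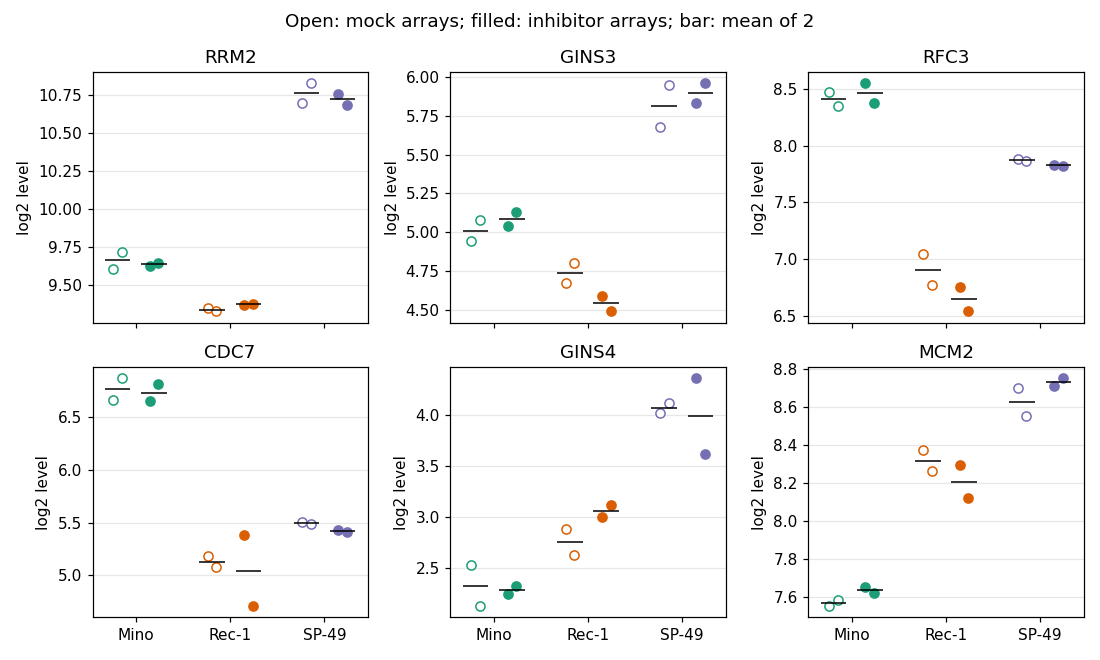
Log2 level of RRM2, GINS3, RFC3, CDC7, GINS4 and MCM2 on each of the 12 arrays, by line and treatment, 1 point per array. RRM2, GINS3 and GINS4 are highest in SP-49, RFC3 and CDC7 highest in Mino, and MCM2 lowest in Mino.

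The differences between the lines were also present in the inhibitor arrays, which are other arrays of the same lines. There Rec-1 and Mino differed in 22 members, SP-49 and Mino in 24 and Rec-1 and SP-49 in 27, against 28.9%, 26.2% and 29% of all genes. Of the members called in the mock arrays, 17 of 20, 23 of 25 and 23 of 25 were called in the same direction, and the sign was the same for all of them. The exceptions to the call included RPA3, E2F2 and MCM4 between Rec-1 and Mino (adjusted p 0.404, 0.321 and 0.097) and FEN1 and POLD2 between SP-49 and Mino (0.0784 and 0.0682). How many of all genes held their call in this way was not counted, so these counts do not set the members apart.

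Other probe sets of the same genes gave a partial check of the line differences. Of the 20 members called between Rec-1 and Mino, 12 had other probe sets, and for 9 of these another one passed in the same direction. For DSCC1 another one passed in the opposite direction. Between SP-49 and Mino the counts were 12 and 6, with CDT1 opposite (0.61 on the brighter and -1.19 on the dimmer probe set). Between Rec-1 and SP-49 they were 16 and 12, with none opposite. The same agreement was not counted over all genes, so these counts have no background beside them.

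The neighbouring gene lists also differed between the mock arrays of the lines. Of 24 further replication genes 11, 14 and 16 passed between Rec-1 and Mino, SP-49 and Mino, and Rec-1 and SP-49. Nucleotide supply, with 7 genes, gave 5, 3 and 5. Of 18 G1/S regulators 11, 12 and 11 passed, and of 20 G2/M genes 14, 8 and 10. Over all genes the shares were 26.1%, 25.6% and 28.9%. In these lists they ran from 40% to 71.4%, above the share of all genes as well. With dim genes left out of the background, the shares of all genes were 36.4%, 36% and 40.1%. Nucleotide supply (42.9%) and G2/M (40%) between SP-49 and Mino were near that share. CDKN1A read 3.00 and 2.74 in Rec-1, against 7.13 and 6.89 in Mino and 6.83 and 6.56 in SP-49. Rec-1 was at least 17.7-fold below Mino for CDKN1A, a lower bound because the Rec-1 readings are near the low end (adjusted p 4.01e-08). RBL2 was lower in Rec-1 too, by 1.98 against Mino and 2.35 against SP-49. RB1, the retinoblastoma gene, was higher in SP-49 than in Mino by 1.54 and lower in Rec-1 than in SP-49 by 2.93 (adjusted p 1.53e-08). ORC5, another origin recognition gene, was lower in SP-49 than in Mino by 2.57 (adjusted p 1.51e-07).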

How the data were processed

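RNA of the 3 lines was hybridised to 12 single-colour Affymetrix arrays. The deposited values are on the log2 scale and were normalized between arrays by the authors, with RMA and limma named, but no version, in the submitters' processing notes. Base 2 is inferred from their range. Of 54675 probe sets, 41097 named 1 gene, 1801 several and 11777 none, and 41043 symbols were updated by gene number. Each gene was represented by its probe set with the highest mean over the 12 arrays, which gave 19775 genes. Low values were kept.

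Changes were fitted in R 4.3.3 with lmFit and eBayes (constant prior) of limma 3.58.1, with 6 group means over all arrays, 6 residual and 5.22 prior degrees of freedom. Two-sided p-values were adjusted over all 19775 genes in each comparison (Benjamini-Hochberg), with a threshold of 0.05. Changes within a line had a median standard error of 0.164, and 2 arrays per group limit the precision. Arrays give no depth in reads. The fit was tested on simulated data.

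The members, the other lists (further replication genes, nucleotide supply, G1/S regulators, G2/M) and the tests were chosen with earlier results of these data known. Genes were named by a rule. In each comparison it took up to 20 members past the threshold with the smallest adjusted p, or the 3 with the smallest p where fewer than 3 passed. MCM2, MCM10, CDC6, CDT1, PCNA, CCNE1, CCNE2, E2F1, E2F2, RRM2 and UHRF1 were named with the inhibitor whatever their p, and at most 4 genes past the threshold from each other list. Other members and probe sets given by value were picked after their values were seen. Replicate numbers were not used to pair the arrays in the main fit, because the labels do not say that they mark a shared culture or day. The deviations of same-numbered arrays from their group means correlated at 0.046 in Mino, 0.094 in Rec-1 and -0.011 in SP-49. Taken over all genes, with their noise, such correlations cannot exclude pairing. The alternatives were separate tests of all probe sets, their mean per gene, a filter on dim genes, a second quantile normalization, centring on the median, a robust prior with an intensity trend, array weights, a fit of the compared arrays alone, a replicate block, each array left out in turn, and the second inhibitor arrays of Rec-1 and SP-49 left out together. The inhibitor arrays compared between lines in place of the mock arrays were added after the data were seen.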

Additional observations from a re-analysis of the deposited data

How the results depend on the processing

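The count of members past the threshold with the inhibitor stayed at 0 in Mino and SP-49 under every alternative run. In Rec-1 it was 4 with every probe set on its own, 5 with an intensity trend and a robust prior, 2 with probe sets averaged per gene, 1 with median centring and 0 to 2 with 1 array left out. The 2 were CDC6 (-0.81, adjusted p 0.0201) and MCM10 (-0.45, adjusted p 0.0237), and the 1 was MCM10 (-0.45, adjusted p 0.0475). The count was 0 with dim genes left out, quantile normalization again, array weights, only the arrays compared, a replicate block, and both second inhibitor arrays of Rec-1 and SP-49 left out. The members that passed with 1 array left out were CDC6 and TIPIN (-0.78, adjusted p 0.0168) without inhibitor replicate 1 of Rec-1, and POLD2 without either mock array of SP-49. With 1 array left out, the difference of changes gave 0 to 1 members between Rec-1 and Mino and between Rec-1 and SP-49, and 0 between SP-49 and Mino. A lone array was then assumed to vary like the other groups. The mock comparisons gave 13 to 21 members between Rec-1 and Mino, 16 to 25 between SP-49 and Mino and 17 to 30 between Rec-1 and SP-49. With the replicate block they gave 20, 24 and 28, the inhibitor comparisons and the differences of changes 0 members each, and among the genes named the block ended 1 call, that of DCK in Rec-1 (adjusted p 0.0519). Averaging the probe sets reversed 3 line differences, CDT1 between SP-49 and Mino (-0.29, adjusted p 0.0452) and DSCC1 and E2F2 between Rec-1 and Mino (-0.07 and 0.04, adjusted p 0.762 and 0.867). These genes have probe sets that disagree, and the cause was not tested. The median change of the members ran from -0.058 to 0.001 in Mino, from -0.112 to 0.014 in Rec-1 and from -0.074 to 0.005 in SP-49 with 1 array left out. Quantile normalization again turned it to 0.044 in Rec-1 and 0.051 in SP-49. Over the single genes named, 3784 results under the alternatives kept direction and side of the threshold, 166 fell short of it, 10 newly passed it and 3 reversed.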
